A study of Mus musculus with 2 samples.

Results

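The genes described here encode the nuclear subunits of respiratory complex I, the Nduf genes. They were taken by symbol, as gene IDs whose mouse symbol starts with Ndufa, Ndufb, Ndufc, Ndufs or Ndufv followed by a number, leaving out pseudogenes and the assembly factors. Of 44 such symbols in RefSeq, 4 are pseudogenes and 3, Ndufb1, Ndufb4b and Ndufb4c, have no gene ID in the files used here, which leaves 37 genes of 24532. The 37 include Ndufa4 and Ndufa4l2, whose products are now counted with cytochrome c oxidase, and do not include the acyl carrier protein gene Ndufab1.

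RNA was sequenced from sorted CD69-positive CD4 CD8 double-positive (DP) thymocytes of C57BL/6 mice aged 6 weeks, an immature stage of T cell development, with CD69 marking cells that have recently been signalled through the T cell receptor. There were 2 libraries, both with floxed Nsrp1 alleles: 1 without Cre, labelled wild-type, and 1 with CD4-Cre, a transgene that deletes floxed DNA from about the DP stage on, labelled as the NSrp70 conditional knockout and here called KO. The comparison asks how loss of the splicing factor NSrp70 in these cells changes RNA levels. The sources used here do not say how many mice a library holds. Each genotype has a single library, so no difference has a replicate check or a test, and every 95% interval covers counting error only. In bulk RNA, fewer cells of a type and less RNA per cell cannot be told apart.

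Complex I takes electrons from NADH and passes them to ubiquinone while pumping protons across the inner mitochondrial membrane. It is built from a peripheral arm, with an N module that oxidises NADH and a Q module that reduces ubiquinone, and a membrane arm, with a proximal and a distal part. A set of core subunits is shared with bacteria, and the other, supernumerary subunits surround them. Developing thymocytes use mitochondrial respiration as well as glycolysis. Subunits encoded by mitochondrial DNA were not analysed here.

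The library labelled KO was the deeper one, with 5076 megabases of exon-covering reads against 4199 for the library labelled wild-type. Nsrp1 itself stood at 29.7 TPM and 29.6 TPM (a level per transcript length, scaled to a fixed total in each library), so RNA abundance does not check the labels, which do not name the floxed exon. The DP markers Cd4, Cd8a, Cd8b1, Cd69, Cd3e, Rag1 and Ptcra summed to 5111 and 5361 TPM. Other cell types gave low sums: 53.6 and 62.1 TPM for 5 B cell markers, 82.3 and 67.9 TPM for 6 macrophage and dendritic cell markers, 8.14 and 10.5 TPM for 3 natural killer cell markers, and 7.08 and 8.54 TPM for 5 thymic epithelial markers, of which Foxn1, Krt5 and Krt8 were listed at 0 in both libraries. The 4 erythroid markers summed to 0.846 and 1.17 TPM, with Hba-a1 listed at 0 in both libraries. Below, paired values are in the order library labelled wild-type, then library labelled KO.

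Nearly every complex I subunit gene was slightly higher in the library labelled KO. Of the 37 genes, 36 reached 1 TPM in at least 1 library, and 34 of these had a log2 fold change above 0, where the fold change is log2 of (TPM + 1) labelled KO over (TPM + 1) labelled wild-type. Among all 12029 genes measured in this way, 38.5% were above 0 in TPM and 53.5% in FPKM, while the count for the subunit genes was 34 of 36 in both units. Their median log2 fold change was 0.17, against -0.07 over all genes, and it ran from -0.17 for Ndufa6 to 0.39 for Ndufb6. A log2 fold change of 0.25 or more was reached by 10 of the 36, against 9.85% of all genes. Of these 10, 6 are among the 13 genes that share at least 10% of their sequence, in 50-base words, with other genes, and 4 are among the other 23. In FPKM, a level per length scaled to the mapped reads, 19 reached it, against 14.7%. None was past 1 in size, against 0.657% of all genes at 1 or more and 1.37% at -1 or less. The summed level of the 36 genes was 5685 and 6408 TPM, a ratio of 1.13.

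Most single differences were small but larger than counting error. The counting interval of the ratio lay above 1 for 24 of the 36 genes, held 1 for 10 and lay below 1 for 2. Among all genes the interval lay above 1 in 16.3% and below 1 in 35.0%. The half-width of that interval on the log2 scale was widest for Ndufs5, at 0.44, with 77.4 and 109 estimated read pairs, and was 0.078 for Ndufb11, with 2311 and 3069.

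**Figure D1:**
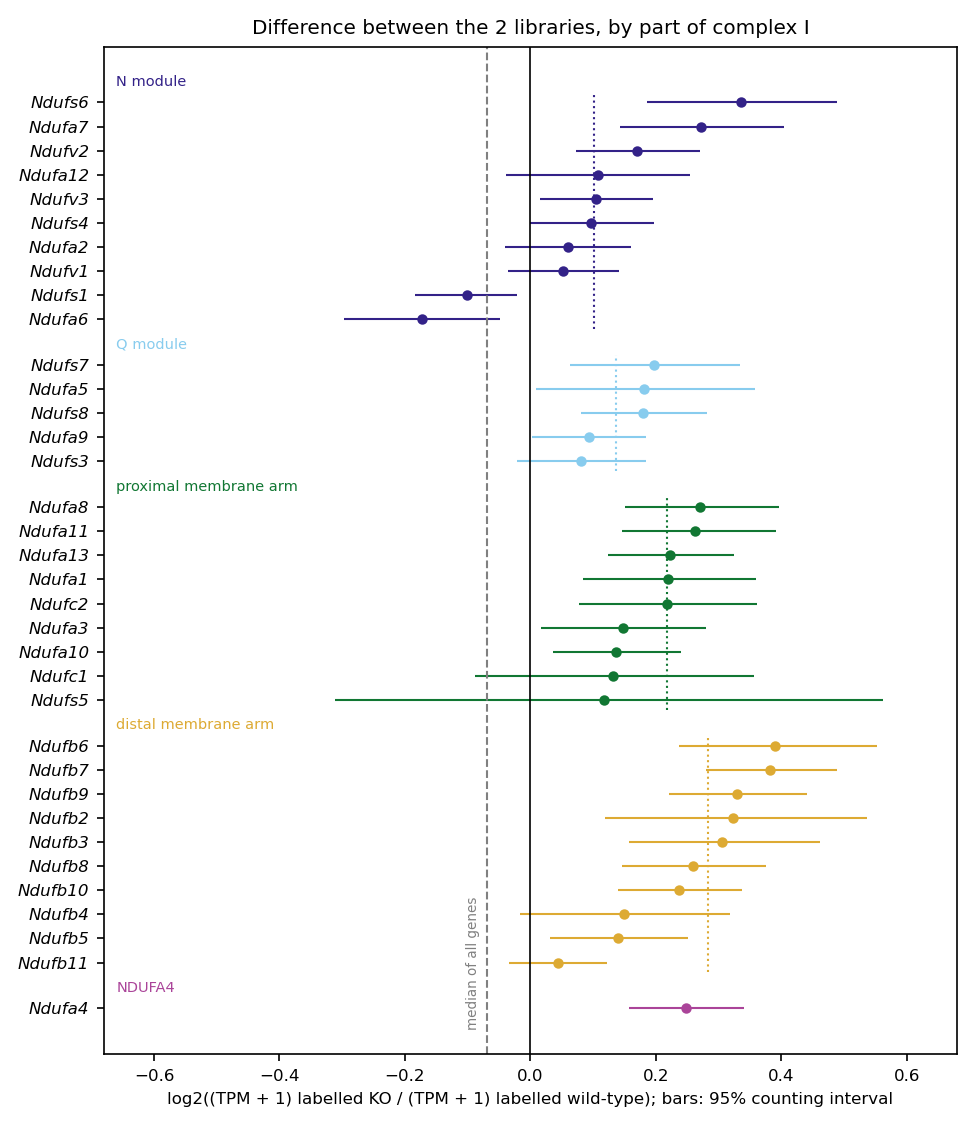
Each point is the log2 fold change of a subunit gene, labelled KO over labelled wild-type, with its 95% counting interval as a bar. Genes are grouped by part of complex I, dotted lines are the group medians over all measured members, and the dashed grey line is the median of all 12029 genes at -0.07; 33 of the 35 points shown lie right of 0.

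Promoters were searched because the subunit genes had a common direction. RefSeq windows (GRCm38.p6, 250 bases before to 50 after the start) were found for 32 of the 36 genes. The motif of YY1, AAGATGGCG on either strand, was in 5 of the 32 (15.6%) and in 3.87% of 9022 measured protein-coding genes. The ETS motif bound by GABPA and related factors, CCGGAAG or on the other strand CTTCCGG, was in 4 (12.5%) and 21.8%, and the NRF1 palindrome in 1 (3.12%) and 2.57%. No window of a subunit gene held more than 1 of the 3 motifs. The 5 windows with the YY1 letters and those of the 2 highest genes, both with the ETS letters, are shown in 30 bases each, 5′ to 3′ on the gene's strand with the motif in capitals.
Ndufs6: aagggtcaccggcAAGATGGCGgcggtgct
Ndufs7: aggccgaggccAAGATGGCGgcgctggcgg
Ndufc1: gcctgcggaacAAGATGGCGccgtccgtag
Ndufs4: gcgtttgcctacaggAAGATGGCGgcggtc
Ndufa9: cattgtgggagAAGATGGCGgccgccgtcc
Ndufb6: atcgtccttgttCTTCCGGtcccctcccct
Ndufb7: agcctagatgacCCGGAAGacactgaaggg

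All 5 YY1 matches lay on the gene's own strand just after the start, their first base 22 to 35 bases downstream of it. They are at chr13:73328433-73328462 (minus strand, Ndufs6), chr10:80249462-80249491 (plus, Ndufs7), chr3:51408915-51408944 (minus, Ndufc1), chr13:114388045-114388074 (minus, Ndufs4) and chr6:126849097-126849126 (minus, Ndufa9). The ETS windows shown are at chr4:40279636-40279665 (minus, Ndufb6) and chr8:83566726-83566755 (plus, Ndufb7). Their matches begin at -232 and -20 from the start. The ETS letters were also found for Ndufs8 and Ndufs3, not shown, with log2 fold changes of 0.18 and 0.081. The 5 genes with the YY1 letters had a median log2 fold change of 0.13, from 0.093 to 0.33, and the 27 without had 0.18, and their ranges overlapped. The 4 with the ETS letters had 0.28, from 0.081 to 0.39, and the 28 without 0.18, again with overlapping ranges. A match describes letters in the window and does not show binding.

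The group medians differed between the parts of the complex, being lowest in the N module (0.10 over 10 genes), followed by the Q module (0.14 over 6), the proximal membrane arm (0.22 over 9) and the distal membrane arm (0.28 over 10). These are descriptions of 2 libraries, and the ranges of the parts overlap. In the peripheral arm 2 of 16 genes reached 0.25, and in the membrane arm 8 of 19 did, beside 9.85% of all genes, so the share in the peripheral arm is near that of all genes. Short coding genes reached 0.25 more often than all genes did, as the upper quartile of other coding genes of 500 to under 1000 bases was 0.25. The difference between the arms was not tested. Median transcript lengths, in the same order of parts, were 582, 862, 681 and 646 bases. Without their 3' terminal exon the medians were 0.10, 0.11, 0.16 and 0.23.

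The N module held both genes that were lower in the library labelled KO. Ndufa6, on chromosome 15 from 82350139 to 82354291 (mm10, minus strand), encodes a small LYR-motif subunit that binds the acyl carrier protein. It stood at 206 TPM (193 to 219) and 183 TPM (172 to 194), a ratio of 0.887 (0.814 to 0.967). All 3 of its exons were lower, with log2 ratios of depth of -0.15, -0.24 and -0.13 from the 5' end, although the counting interval of the ratio lay below 1 in the middle exon alone (0.730 to 0.986). None of its 50-base words, the overlapping stretches of its transcript, occurs in transcripts of another gene. It was the lowest of the 36 genes, although at 560 bases its transcript is short.

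Ndufs1, on chromosome 1 from 63143592 to 63176822 (minus strand), encodes the largest core subunit, which carries iron-sulphur clusters. Its level was 92.6 TPM (88.8 to 96.6) and 86.3 TPM (83.0 to 89.6), a log2 fold change of -0.10, and -0.0034 in FPKM. Its most abundant transcript alone, NM_001160038, went the other way, with a log2 fold change of 0.42. The other core subunits of the N module were Ndufv1, which binds NADH and flavin, at 131 and 136 TPM (0.052), and Ndufv2, an iron-sulphur subunit, at 104 and 117 TPM (0.17).

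Among the supernumerary genes of the N module, Ndufs6, which encodes a zinc-binding subunit, was the highest, with 129.7 TPM (119 to 141) and 164 TPM (154 to 175), a log2 fold change of 0.33. Ndufa7 stood at 169 and 204 TPM (0.27). Ndufa12 stood at 135 and 146 TPM (0.11), but 53.8% of its 50-base words also occur in the pseudogene Gm15920, which leaves its level uncertain. Ndufs4, whose product helps hold the N module on the arm, stood at 108 and 116 TPM (0.097). Ndufa2 was at 270.1 and 281 TPM (0.059).

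All 6 genes of the Q module were above 0, but none reached 0.25. Ndufs7, a core subunit gene whose product lies at the ubiquinone site, stood at 114 and 131 TPM (0.20). The iron-sulphur subunit gene Ndufs8 stood at 195 and 221 TPM (0.18), and Ndufs3 at 162 and 172 TPM (0.081), with 39.7% of its words shared with other genes, chiefly Gm12251. The supernumerary genes Ndufa5 and Ndufa9 stood at 96.3 and 109 TPM (0.18) and, for the longer Ndufa9 transcript, at 148 and 158 TPM (0.093).

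The 7 core genes of both modules had a median of 0.081, and the 29 supernumerary genes had a median of 0.22. The counting interval lay above 1 for 3 of the 7 and 21 of the 29, against 16.3% of all genes. It lay below 1 for 1 gene in each group, against 35.0% of all genes. The core genes also have longer transcripts, with a median of 1540 bases against 602. Among genes of 500 to under 1000 bases the medians were 0.18 for 3 core and 0.24 for 17 supernumerary genes.

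In the proximal membrane arm all 9 genes were above 0, from 0.12 to 0.27. The lower end is Ndufs5 under its own gene ID, while the sum at its locus, described with the levels, gave 0.016. Ndufa8, which encodes a subunit of the intermembrane space with paired cysteines, was the highest, with 139 and 168 TPM. Ndufa11 followed, with 38.9 TPM (36.4 to 41.5) and 46.9 TPM (44.4 to 49.4), a log2 fold change of 0.26 on a transcript of 2661 bases, most of it a terminal exon of 2264 bases. Its difference was similar without that exon (0.27). Ndufa13, also known as Grim19, stood at 124 and 145 TPM (0.22), with 375 of its 1249 transcript bases overlapping the opposite-strand gene Tssk6, itself at 3.47 and 2.17 TPM.

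The X-linked gene Ndufa1 stood at 168 and 196 TPM (0.22), and the other X-linked member, Ndufb11, at 313 and 323 TPM (0.043). Xist, the RNA of the inactive X chromosome, stood at 202 and 76.3 TPM, and the Y-linked gene Ddx3y at 31.1 and 71.2 TPM. Both libraries thus hold both in different amounts, and the mix of sexes and the genotype cannot be told apart. Ndufc2 stood at 115 and 134 TPM (0.22), Ndufa3 at 264 and 293 TPM (0.15), Ndufa10 at 127 and 139.5 TPM (0.14) and Ndufc1 at 79.9 and 87.7 TPM (0.13).

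The distal membrane arm held 5 of the 6 highest fold changes. Ndufb6, on chromosome 4 from 40270591 to 40279421 (minus strand), was the highest, with 92.1 TPM (84.4 to 100.4) and 121 TPM (113 to 129), a ratio of 1.31 (1.18 to 1.47). It was higher in each of its 4 exons, with log2 ratios of 0.46, 0.45, 0.39 and 0.20 from the 5' end. The counting interval of the ratio held 1 in exon 3 (0.957 to 1.80) and exon 4 (0.919 to 1.46) and lay above 1 in the others. However, 34.1% of the words of Ndufb6 are shared with transcripts of Smim27, which stood at 25.4 and 33.2 TPM. Ndufb7, on chromosome 8 from 83566758 to 83571623 (plus strand), encodes a cysteine-paired subunit of the intermembrane face and shares no words with other genes. It stood at 262 TPM (247 to 277) and 341 TPM (327 to 356), a ratio of 1.305 (1.215 to 1.403), with log2 ratios of 0.38 outside its terminal exon and 0.39 in it.

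Ndufb9, another LYR-motif subunit gene, stood at 194 and 244 TPM (0.33), opposite in direction to Ndufa6. Ndufb2 stood at 77.8 and 97.6 TPM (0.32). Its terminal exon of 80 bases went the other way, but held only 4.76 and 3.19 read pairs. Ndufb3 stood at 89.6 and 111 TPM (0.31), Ndufb8 at 159 and 191 TPM (0.26) and Ndufb10, which encodes another cysteine-paired subunit, at 249 and 294 TPM (0.24). Ndufb5, at 132 and 145 TPM (0.14), Ndufb4, at 127 and 141 TPM (0.15), and Ndufb11 were the lowest of this arm. Of the 10 genes, 7 share at least 10% of their words with other genes, and the median of the other 3, Ndufb3, Ndufb7 and Ndufb10, was 0.31.

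Ndufa4, now counted with cytochrome c oxidase, was the most abundant of the genes in both libraries, with 376 TPM (358 to 395) and 447 TPM (430 to 465), a log2 fold change just under 0.25. Its paralog Ndufa4l2, which is known as a hypoxia-induced gene, was listed at 0 in both libraries. At these depths 3 read pairs, the floor for a level of 0, would be 0.360 and 0.279 TPM.

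The assembled complex holds most of its subunits in equal numbers, while their RNA levels per transcript length were spread widely. In the library labelled wild-type 32 of the 36 genes lay between 75 and 300 TPM, around a median of 133 TPM. After Ndufa4 the highest were Ndufb11 at 313 and 323 TPM, Ndufa2, Ndufa3 and Ndufb7. Ndufb11 was above Ndufb7 in the library labelled wild-type and below it in the library labelled KO (323 and 341 TPM), where their counting intervals overlapped (312 to 334 and 327 to 356 TPM). The lowest in the library labelled wild-type were Ndufs5, Ndufa11 and Ndufb2. The level of Ndufa11 rests on its annotated length: its terminal exon of 2264 bases had a depth equal to 9.51 and 11.3 TPM, and its other exons 206 and 249.6 TPM. The same exon puts it in the length class from 2000 bases. Other levels also rest on thinly covered exons. The terminal exon of Ndufv2 (793 bases) had 1.41 and 1.64 TPM, and its other exons 215 and 242 TPM. That of Ndufs4 (1072 bases) had 42.0 and 42.2 TPM, and the others 262 and 286 TPM. The first exon of Ndufa13 (678 bases) had 3.82 and 4.83 TPM. The length class of these genes, from 1000 to under 2000 bases, includes those exons. The 36 genes held 0.568% and 0.641% of all TPM.

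**Figure D2:**
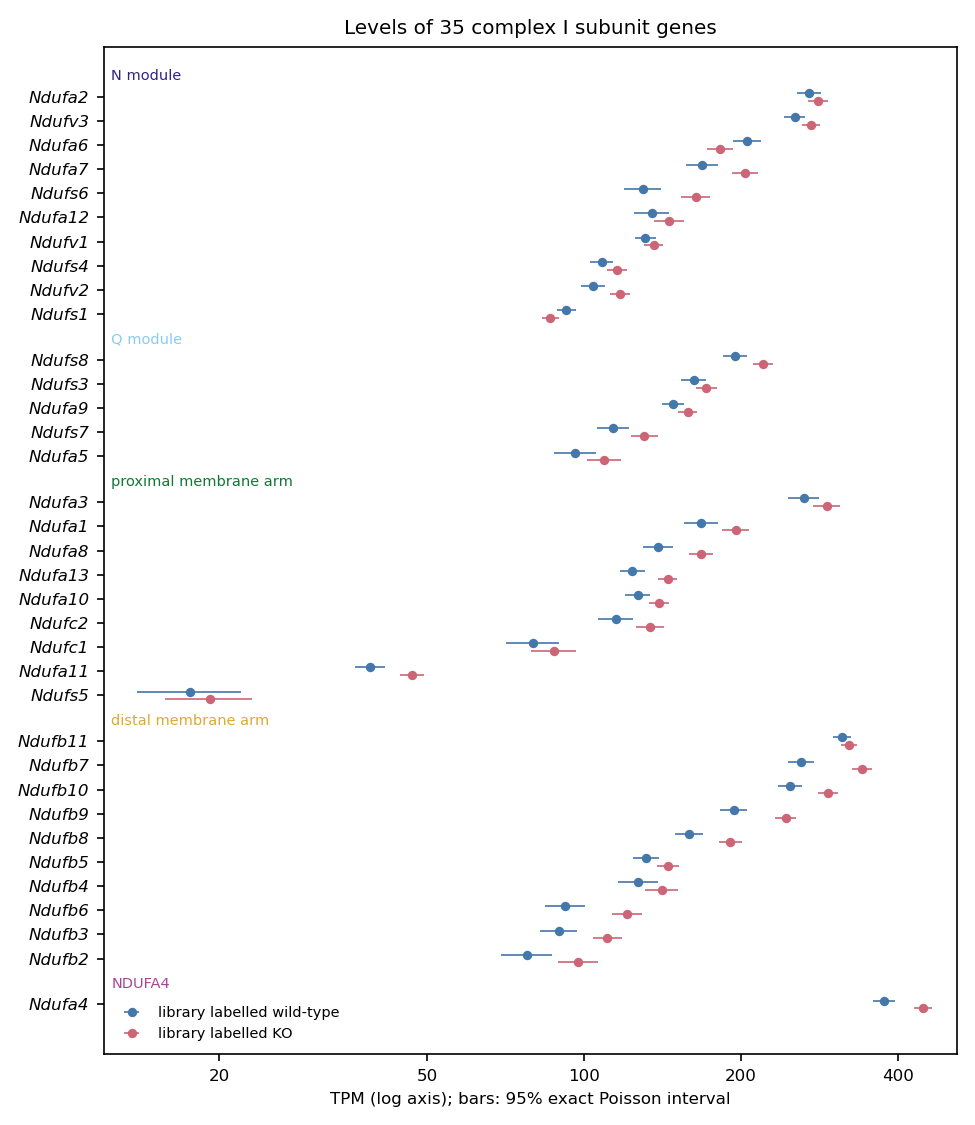
Points are the TPM of 35 of the 36 subunit genes (log axis) in the library labelled wild-type (blue) and the library labelled KO (red), with 95% exact Poisson intervals, grouped by part of complex I. Most genes lie between 75 and 300 TPM, and Ndufs5 stands apart at 17.6 and 19.1 TPM.

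Ndufs5 encodes a cysteine-paired subunit of the proximal membrane arm, and most of the level at its exons was listed under another name. In the authors' annotation the transcript of its pseudogene, Ndufs5-ps, is placed both at its own locus on chromosome 16 (42955580 to 42956079) and on chromosome 4 (123712710 to 123718161), on 484 of the 509 exonic bases of Ndufs5. That copy took 148 and 148 TPM, beside 17.6 TPM (13.9 to 22.0) and 19.1 TPM (15.7 to 23.1) under the name Ndufs5. The sum at the Ndufs5 locus was 165 and 167 TPM, a log2 fold change of 0.016, which would put Ndufs5 among the mid-level genes. The single-exon copy on chromosome 16 stood at 30.7 and 53.0 TPM (0.77), and with it the sum was 196 and 220 TPM (0.17). Reads of the 3 places cannot be told apart where their sequence is the same.

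Transcript shares differed by 10 percentage points or more in 1 of the 8 genes with more than 1 annotated transcript, against 27.7% of the 3032 such genes that reached 10 TPM in each library. In Ndufs1 the transcript NM_001160039 held 27.6% and 10.7% of the gene (25.6 and 9.26 TPM), while NM_001160038 held 28.9% and 42.0% (26.8 and 36.2 TPM). These transcripts differ in the length of the first exon, 237 against 395 bases. By TPM, the transcripts with the longer first exon together held 48.2% and 63.0%. The read pairs assigned to the first exons themselves went the other way, with 67.9 and 58.6 on the longer form and 14.4 and 16.1 on the shorter, so that the longer form held 82.5% and 78.5% of them. The share of transcripts with a 104-base exon 2 was 56.6% and 52.7%. The first exons of all 4 transcripts rested on 82.3 and 74.6 read pairs in sum, and the 2 forms differ there by 158 bases, so the split between them has little depth behind it and no direction is read from it.

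In Ndufv3, whose product sits on the N module, the short transcript without the 1092-base exon stood at 184 and 205 TPM and the long one at 70.3 and 68.0 TPM. The long form held 27.7% and 24.9% of the gene. The non-coding transcript of Ndufs6 held 14.8% and 10.9%.

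**Figure D3:**
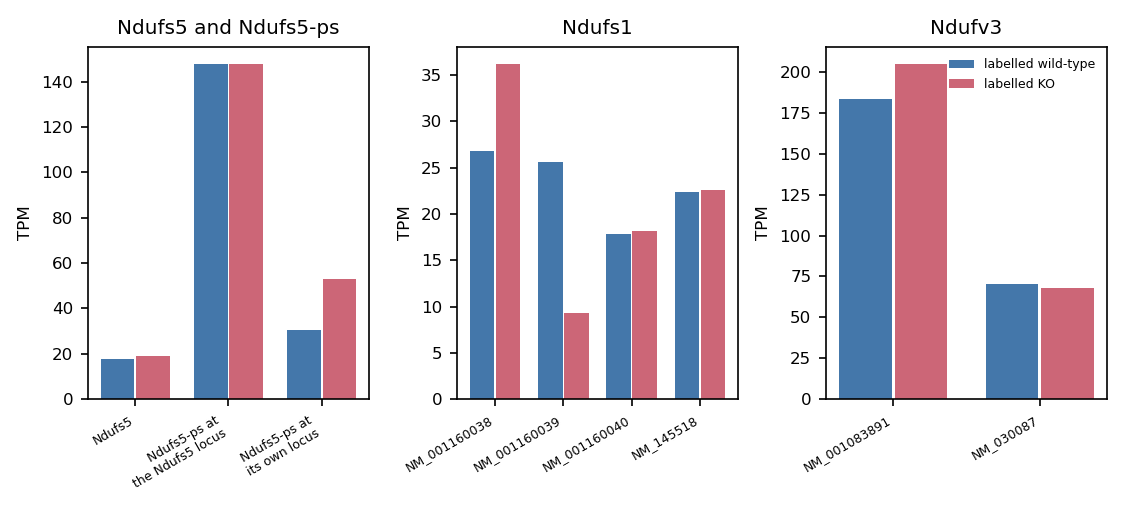
Bars are TPM per annotated transcript in the library labelled wild-type (blue) and the library labelled KO (red), from 0. Ndufs5 is split with the copy of Ndufs5-ps annotated on its exons (148 TPM in both libraries), Ndufs1 differs mainly in NM_001160039 (25.6 and 9.26 TPM), and Ndufv3 is mostly its short form.

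Most subunit genes have short transcripts, and the fold change varied with transcript length among protein-coding genes. A most abundant transcript under 1000 bases was found for 27 of the 36 subunit genes and for 12.2% of all genes. Across the other protein-coding genes the median fold change (log2) was 0.098 under 500 bases (118 genes), 0.13 from 500 to under 1000 bases (760 genes), 0.053 from 1000 to under 2000 (2573 genes), -0.06 from 2000 to under 4000 (4565 genes) and -0.21 from 4000 up (3012 genes). In the class from 500 to under 1000 bases, 73.0% of the other coding genes were above 0. With non-coding genes included, the 550 other genes under 500 bases had a median of -0.16, and 38.7% of them were above 0.

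Against the coding genes of these classes the difference of the subunit genes was smaller than against all genes. The 7 subunit genes under 500 bases had a median of 0.15, the 20 from 500 to under 1000 bases 0.21, and the 7 from 1000 to under 2000 bases 0.097. Of the 36 genes, 27 lay above the median of the other coding genes of their class, by a median of 0.059. Against all other genes of the class, non-coding ones included, 29 of 36 did, by a median of 0.12. Against the other coding genes alone, 9 of 10 genes of the distal membrane arm lay above, by a median of 0.15. Of the N module 5 of 10 did, by a median of 0.0031. In the class from 500 to under 1000 bases, 8 of the 20 subunit genes were above the upper quartile of the other coding genes, 0.25.

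Within the 36 genes, Spearman's rank correlation between transcript length and log2 fold change was -0.30, and Pearson's r with log10 length was -0.33. Over 11064 protein-coding genes Spearman's coefficient was -0.46 and Pearson's -0.32. All points share the same pair of libraries, so these are descriptions. Over the 36 genes the rank correlation was -0.12 when the terminal exon was left out of the fold change.

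**Figure D4:**
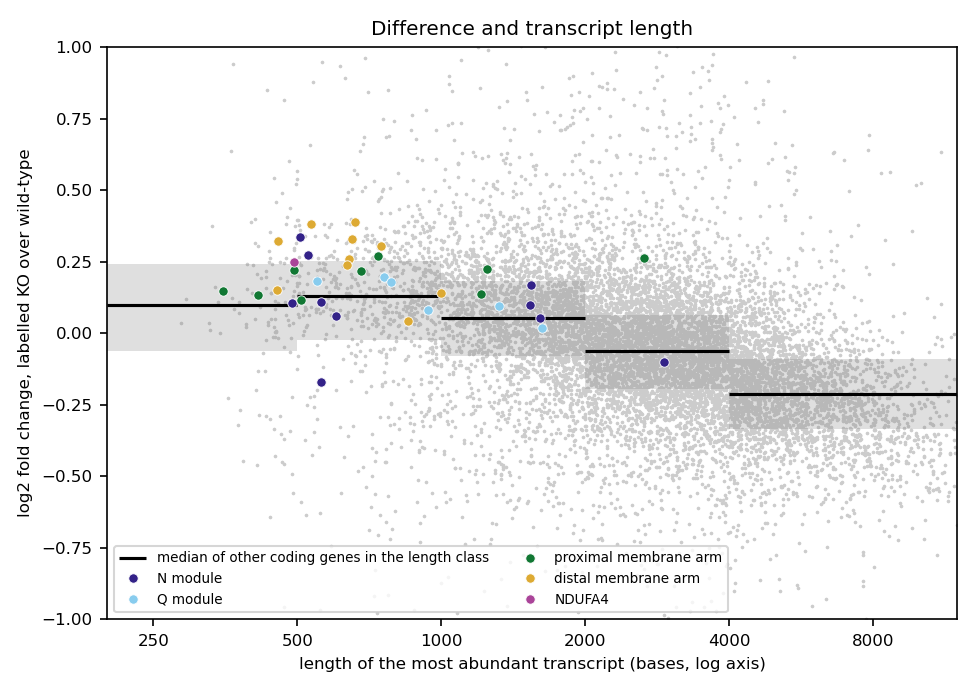
The x axis is the length of the most abundant transcript in bases (log axis) and the y axis the log2 fold change, labelled KO over labelled wild-type, cut at -1 and 1. Grey dots are other protein-coding genes, black lines and bands their median and middle quartiles in 5 length classes, and coloured points the subunit genes, of which 27 of 36 lie above the line of their class.

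The median of the subunit genes was similar without the terminal exon. Over all genes the terminal exon was higher relative to the other exons in the library labelled KO, by a median of 0.18 on the log2 scale, and over the 36 subunit genes by 0.026. Without the terminal exon 34 of the 36 genes were above 0, against 31.7% of all 11260 genes with such a part, with a median of 0.17 against -0.14. The value over all genes again varied with transcript length. Among other genes the median without the terminal exon was 0.091 under 500 bases and 0.12 from 500 to under 1000. It was 0.016 from 1000 to under 2000, -0.14 from 2000 to under 4000 and -0.35 from 4000 up. Most subunit genes are in the short classes, where the gap is smaller.

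The other nuclear respiratory genes had similar values. Complex II had a median of 0.19 (4 of 4 genes above 0), complex III 0.12 (8 of 9), complex IV 0.21 (10 of 10) and ATP synthase, complex V, 0.14 (17 of 17). Of all genes 38.5% were above 0. Over the 40 genes of these complexes the median was 0.17, the same to 2 decimals as that of complex I. Their median transcript length was 729 bases. Of coding genes of 500 to under 1000 bases other than the subunit genes, 73.0% were above 0. In complex II, Sdhb stood at 261 and 309 TPM (0.24) and Sdhc at 145 and 165 TPM (0.19), with Sdhd also at 0.19, while Sdha was level at 185 and 185 TPM. In complex III, Uqcr11 (158 and 188 TPM) and Uqcrq (67.6 and 78.3 TPM) were the highest, and Cyc1 (196 and 192 TPM) and Uqcrh (726 and 765 TPM) the lowest.

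In complex IV, Cox5a (0.34) and Cox8a (0.34) were the highest, and Cox6b1 (0.13) and Cox7c (0.085) the lowest. Among ATP synthase genes Atp5g1 was the highest, with 143 and 240 TPM (0.74), but its value without the terminal exon was 0.25. Atp5pb followed (198 and 252 TPM), and Atp5a1 (728 and 764 TPM) and Atp5j2 (460 and 475 TPM) were the lowest. The acyl carrier protein gene Ndufab1 stood at 94.6 and 107 TPM (0.18).

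Assembly factors help to build complex I. Of 18 measured assembly factor genes 12 were above 0, against 38.5% of all genes, with a median of 0.078. Their median transcript length was 1558 bases, and 61.4% of other coding genes of 1000 to under 2000 bases were above 0. Ndufaf4 (12.8 and 17.1 TPM, 0.39) and Ndufaf8 (50.6 and 65.9 TPM, 0.37) were the highest, and Tmem126b (20.8 and 16.8 TPM, -0.29) and Foxred1 (28.6 and 24.99 TPM, -0.19) the lowest. The difference between these genes and the subunit genes was not tested.

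Of 11 measured regulators of nuclear respiratory genes 4 were above 0 (36.4%, near the 38.5% of all genes), with a median of -0.03 against -0.07 over all genes. Their transcripts are long, from 2242 to 5244 bases. The mitochondrial DNA-binding factor gene Tfam stood at 43.7 and 47.5 TPM (0.11) and Myc at 41.7 and 43.3 TPM (0.053), the highest of the list. Nrf1, a transcription factor of respiratory genes named here with Gabpa and Yy1 for the motifs searched, was level at 91.5 and 90.01 TPM, as was Gabpa at 63.7 and 62.5 TPM. Yy1 stood at 186 and 163 TPM (-0.19). The lowest were the coactivator gene Ppargc1b, with 6.24 and 4.11 TPM (-0.50), and Polrmt, with 42.8 and 36.7 TPM (-0.22). Ppargc1a was below 1 TPM in both libraries. Without the terminal exon 0 of the 11 were above 0, against 31.7% of all genes, with a median of -0.21 against -0.14. Tfam, Myc, Nrf1 and Gabpa then had -0.032, -0.013, -0.18 and -0.18.

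**Figure D5:**
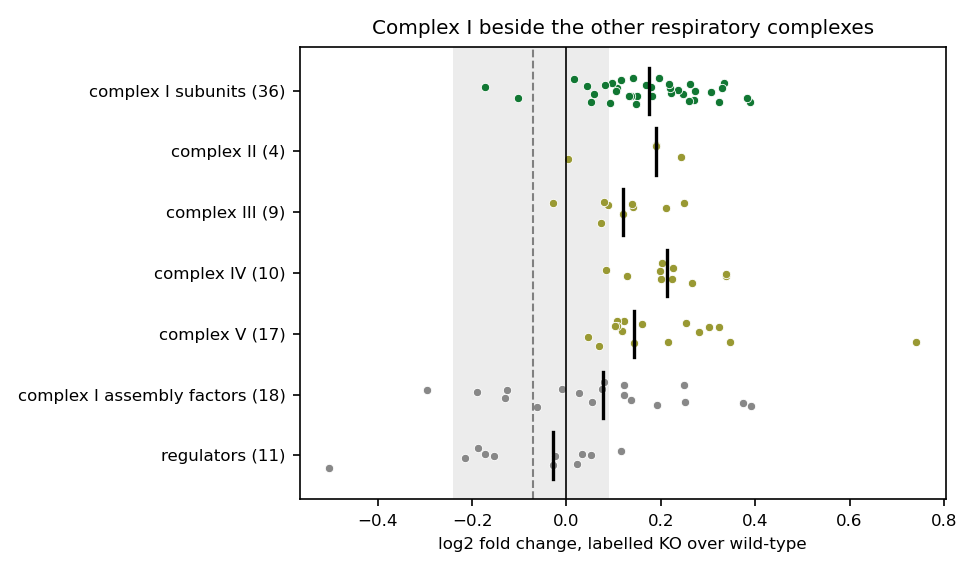
Points are log2 fold changes of single genes, labelled KO over labelled wild-type, with the number of measured genes in brackets. Black bars are medians (0.17 for complex I, 0.19, 0.12, 0.21 and 0.14 for complexes II to V, 0.078 and -0.03 for assembly factors and regulators), and the grey band and dashed line the middle quartiles and median of all genes.

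Markers of cycling cells differed between the libraries as well. The 4 RNAs Mki67, Top2a, Birc5 and Rrm2 were all higher in the library labelled KO and summed to 225 and 439 TPM, with log2 fold changes from 0.52 to 1.51. Their part in the values of the subunit genes was not tested.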

How the data were processed

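Libraries were made with a TruSeq kit from Trizol-extracted total RNA, per the labels' protocols. The authors aligned reads with HISAT2 to mm10 (GRCm38), per the submitters' processing notes, and quantified RefSeq transcripts with StringTie 1.3.3b, per the file headers. Neither the HISAT2 version nor the use of strand is given in the sources used here. Opposite-strand overlaps therefore cannot be told apart. The deposited gene tables give TPM, FPKM and coverage (signal, the mean read depth per base, not scaled), and the authors' transcript tables give the same per transcript and depth per exon.

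Groups come from the labels. TPM of rows with 1 gene ID were summed, and 24462 of 24532 IDs were matched to a symbol by ID. Genes reaching 1 TPM in either library were compared as log2 of TPM + 1, which understates changes of low genes, with sizes of 0.25 and 1 as call rules. Read pairs were estimated as covered bases divided by 202, as 2 mates of 101 bases. Levels have 95% exact Poisson intervals, ratios exact binomial (Clopper-Pearson) intervals, and the floor is 3 read pairs, all for counting error only, since PCR copies are not independent molecules. Exon depth was put on each library's TPM scale. Values outside the terminal exon of the most abundant transcript sum all transcripts over that transcript's remaining length. Shared sequence is the percent of 50-base words of the matching GENCODE M21 transcript, whose length can differ, that occur in another gene's transcripts. Length classes change at 500, 1000, 2000 and 4000 bases.

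Members and lists were chosen with earlier results of these data known. All members entered the counts and medians, 1 measured member is not reported by name, and of each other list the 2 highest and 2 lowest are named. The parts of complex I follow common structural groupings. The alternatives were the unit, pseudocount, filter, scaling, terminal exon, transcript and members with shared sequence. The fold rule at 1 was tried on simulated data with counting error only. As no subunit gene was past 1 in size, that trial does not bear on the smaller differences reported here. Analyses ran in Python 3.11.15 with scipy 1.17.1, pandas 2.3.3, numpy 2.4.6 and, for plots, matplotlib 3.10.9.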

Additional observations from a re-analysis of the deposited data

How the results depend on the processing

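In each alternative that kept the 36 subunit genes, at least 34 were above 0. The count was 34 of 37 with no filter, and 21 of 23 without genes that share at least 10% of their words. Several alternatives could not lower this count, so they do not check the direction. A pseudocount cannot change a sign, and a filter at 5 TPM removed no subunit gene. FPKM and the rescalings shifted values upward. The median was 0.27 with FPKM, 0.18 with a pseudocount of 0.1, 0.24 after rescaling by the median ratio, 0.19 after rescaling without ribosomal protein genes, 0.26 without the terminal exon scaled to covered bases, and 0.20 for the most abundant transcript alone. The median of all genes moved with these scalings, to 0.019 with FPKM, where 53.5% of all genes were above 0. The number at 0.25 or more was 19 with FPKM, against 14.7% of all genes. It was 16 after rescaling by the median ratio and 20 without the terminal exon scaled to covered bases. These scalings shift all genes, and the share of all genes is not given for the last 2. This count thus depends on scale, and no result is read from it. In TPM it was 4 of 23 without genes with shared words, beside 9.85% of all genes, and 6 of the 13 with shared words. The rank correlation with length was -0.36 with TPM-weighted length, -0.12 without the terminal exon (the cause was not tested) and -0.31 without the 2 longest genes. Ndufs1 changed sign, to 0.42, when its most abundant transcript alone was used. The values without the terminal exon on the TPM scale, and the counts without shared genes, were chosen after seeing the data. No paired analysis was possible because each group has 1 library. Leaving out a library was not possible either. Counting intervals are widest for Ndufs5, Ndufc1 and Ndufb2. For Ndufs5 this goes with the annotation, as most of the level at its exons is listed under Ndufs5-ps.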
